A study of Mus musculus with 8 samples.

Results

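The Golgi mannosidases and glycosyltransferases that finish N-linked sugar chains were followed in confluent and subconfluent cultures of mouse cells that the labels call aortic endothelial, which form the inner lining of that vessel. The set named 10 genes (Man1a, Man1a2, Man2a1, Man2a2, Mgat1, Mgat2, Mgat3, B4galt1, St6gal1 and St3gal1), and its members were the probe sets, the groups of short probes that report 1 transcript on these arrays, assigned to exactly 1 of these symbols. That gave 12 probe sets for 9 genes, of 12422 probe sets that were not controls and 8251 genes with a symbol of their own, and Man2a2 had no such probe set. RNA was measured on 8 single-colour Affymetrix arrays. On 4 arrays it came from mature confluent monolayers and on 4 from subconfluent cultures at less than 50% confluency, each from 6000000 cells. The labels give no strain, passage, treatment, genotype or age for either group. Both groups are numbered 1 to 4 as experiments, and matching numbers shared deviations from their group means. The reported tests do not use this pairing. Values with it as a block are given where they change the call of a member, and as counts for the gene lists. Nothing in the labels says that the experiments used separate animals, so p-values measure the spread between these arrays, and the number of arrays limits the precision.

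The values are signals, scaled on each array to a common target of 500, and 1 unit has no meaning as a number of molecules, so levels are compared between arrays and not between genes. Median signal ran from 169 to 187 over the 8 arrays and the scale factors from 3.05 to 13.3. Of 22 endothelial markers on the array, 3 reached a mean signal of 200, namely Eng (695 to 954 over the arrays), Flt4 (112 to 560.1) and Procr (128 to 455). Among the defining ones, Cdh5, which encodes the cadherin of endothelial junctions, ranged from 5.5 to 29.5, Tek from 2.4 to 21.3, Tie1 from 11.4 to 31.1 and Vwf from 12.6 to 30.9, while Pecam1 ranged from 50.1 to 163 and Kdr from 19.7 to 204. None was at 0 on all arrays, which does not show that they were detected, since detection calls were not analysed. Of 21 fibroblast and pericyte markers 15 reached 200. Among their defining ones Col1a1 ranged from 10623 to 24709, Col3a1 from 1503 to 8880 and Pdgfrb from 71.3 to 367. The smooth muscle marker Acta2 ranged from 595 to 5799. Since signals of different probe sets cannot be set against each other, these values describe the arrays and do not settle which cells were present. In RNA from whole cultures, fewer cells of a type and less RNA per cell cannot be told apart.

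N-linked sugar chains are attached to proteins in the endoplasmic reticulum and rebuilt in the Golgi in a fixed order. The class I mannosidases Man1a and Man1a2 trim mannose, Mgat1 adds the first N-acetylglucosamine, the class II mannosidases Man2a1 and Man2a2 remove further mannose, and Mgat2 then starts the second branch, which turns a high-mannose chain into a complex one. Mgat3 adds a bisecting N-acetylglucosamine that limits further branching, B4galt1 adds galactose, and the sialyltransferases St6gal1 and St3gal1 cap galactose with sialic acid, St6gal1 mostly on N-linked and St3gal1 mostly on O-linked chains. At the surface of cells that line vessels these chains are ligands for lectins, and their sialic acids are negatively charged.

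For orientation, the 250 bases upstream of a transcript start are shown for Man1a and Man2a1, the genes that fell, and for Mgat1, which acts between them and did not pass the test. They are RefSeq sequences of build GRCm38.p6, 5′ to 3′ on the strand of the gene, at chr10:54075738-54075987 (minus strand), chr11:49243941-49244190 (plus strand, the first of 3 Mgat1 starts in the table) and chr17:64601399-64601648 (plus strand). Capitals mark GGGCGG or its reverse complement CCGCCC, the GC box bound by Sp1-type factors.
Man1a: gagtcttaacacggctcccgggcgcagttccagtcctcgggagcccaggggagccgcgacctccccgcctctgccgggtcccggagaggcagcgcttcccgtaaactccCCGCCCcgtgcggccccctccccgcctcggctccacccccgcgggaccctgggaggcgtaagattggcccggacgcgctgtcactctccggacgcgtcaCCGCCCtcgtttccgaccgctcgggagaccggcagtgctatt
Mgat1: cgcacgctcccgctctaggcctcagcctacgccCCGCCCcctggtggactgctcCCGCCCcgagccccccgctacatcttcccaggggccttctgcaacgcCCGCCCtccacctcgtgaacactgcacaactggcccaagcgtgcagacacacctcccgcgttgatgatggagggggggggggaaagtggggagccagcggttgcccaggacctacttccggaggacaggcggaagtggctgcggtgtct
Man2a1: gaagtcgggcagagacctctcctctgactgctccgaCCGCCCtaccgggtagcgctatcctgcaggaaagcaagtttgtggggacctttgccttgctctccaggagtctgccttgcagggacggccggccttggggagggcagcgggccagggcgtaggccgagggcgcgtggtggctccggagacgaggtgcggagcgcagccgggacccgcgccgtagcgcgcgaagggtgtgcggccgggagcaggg
The table held windows for 6 of the 10 genes, 10 windows in all. A GC box was found in 6 of the 10, with 2 in the Man1a window, 3 in the Mgat1 window and 1 in the Man2a1 window, and in 32.7% of all 32851 windows of this length. The E-box CACGTG and the core of the Golgi stress element, ACGTGGC or GCCACGT, were in none of the 10 windows, and in 6.02% and 2.02% of all windows. CCAAT or its reverse ATTGG was in 5 of the 10, among them that of Man1a but not those of Man2a1 and Mgat1 shown here, and in 33.9% of all windows. These matches on both strands describe letters in a window and say nothing of binding. GC boxes were present in windows of Man1a and Man2a1, which fell, and of Mgat1, Mgat2 and B4galt1, which did not pass. Not every Mgat1 window and no St6gal1 window held one, and genes with several starts count more than once among the 10. Whether the GC box has a part in the fall was not tested.

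Man1a and Man2a1 were lower in subconfluent cells, and no member probe set was higher by the test. Differences were tested on log2(signal + 50) by limma over all 6007 probe sets whose mean signal reached 200, with Benjamini-Hochberg adjustment and a threshold of 0.05. Of the 12 member probe sets 7 passed this signal minimum, standing for 6 genes, and each of the 7 had a mean above 200 in both groups. Of these 7, 2 fell and 0 rose, where the background was 4.06% of all tested probe sets lower and 2.75% higher. Their median log2 difference was -0.48, beside 0.01 for all tested probe sets, and 6 of 7 had a negative difference, beside 48.8% of all tested. The members were chosen with earlier results of these data known, so these shares describe them and do not test the set. Without the minimum 0 of 12 passed in limma in either direction, where 1.09% of all 12422 probe sets were called lower and 0.58% higher. In that fit 4 of the 12 had an unadjusted p under 0.05, and the share over all probe sets was not counted there. With the minimum, 3 of the 6 tested member genes had one, beside 27.2% of all tested genes, each by its highest probe set. Leaving out 1 array gave 0 to 2 lower members. The other 5 member probe sets, for Man1a (a second one), Man1a2, Mgat3 and St6gal1 (both), lay under the minimum and are given by their values.

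**Figure D1:**
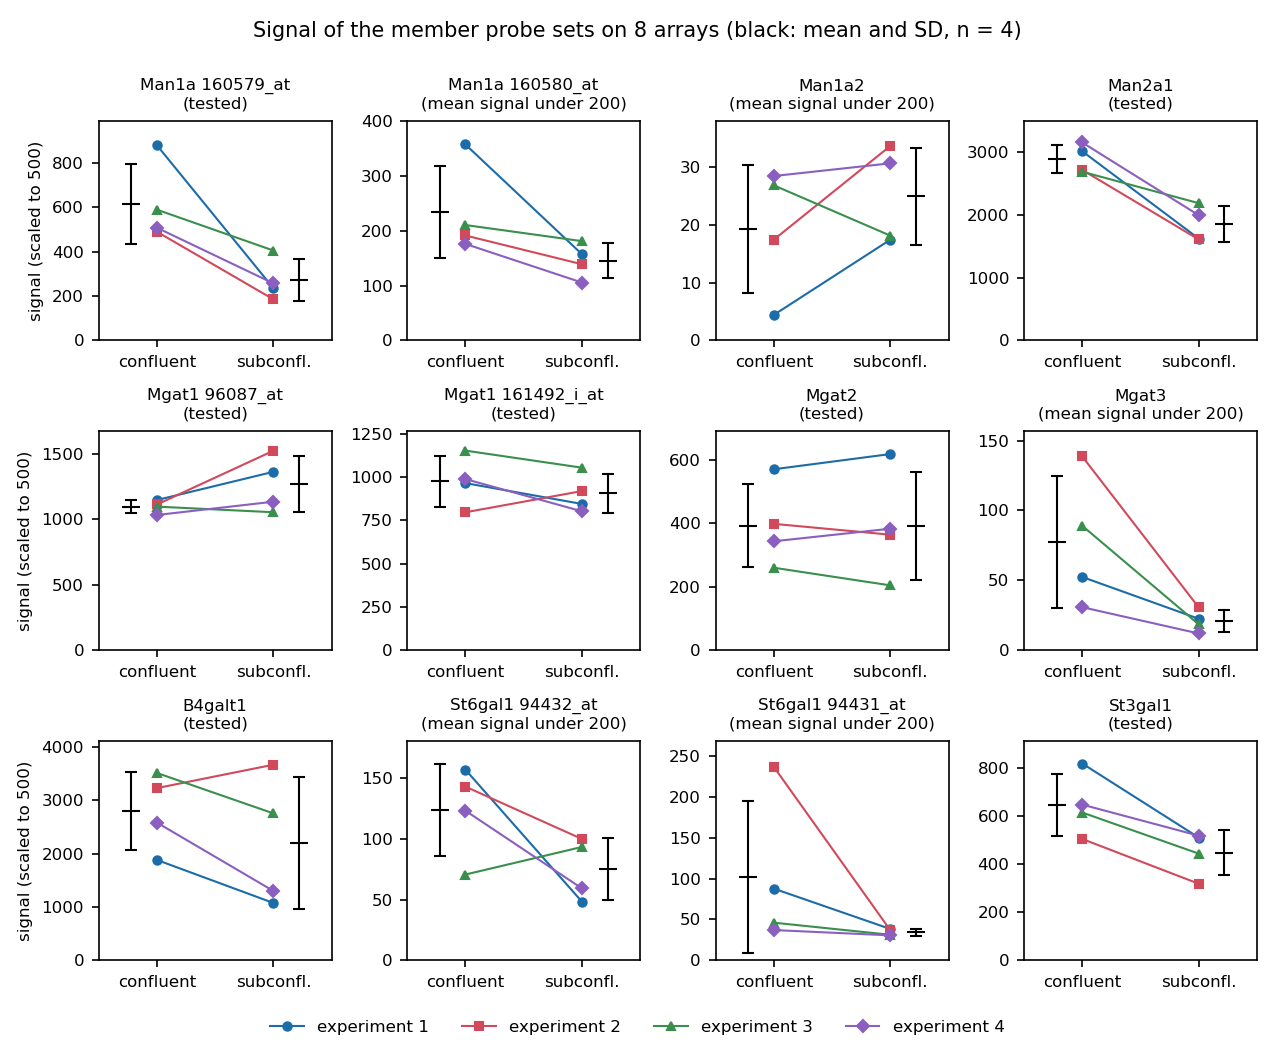
Signal (linear axis from 0, arrays scaled to a target of 500) of each of the 12 member probe sets on the confluent and subconfluent arrays; lines join the arrays of 1 experiment number and black marks give the mean and SD (n = 4). For Man1a (160579_at), Man2a1 and Mgat3 all 4 subconfluent arrays lay below all 4 confluent arrays, as in 8.54% of tested and 5.87% of all probe sets. For Mgat2 and B4galt1 the experiments kept much of their order across the groups.

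The class I mannosidase Man1a had the largest fall among the tested members. Its probe set 160579_at gave signals of 879.9, 490.0, 589.5 and 508 on confluent arrays 1 to 4 and of 235, 185, 405 and 257 on subconfluent arrays 1 to 4. All subconfluent values lay below the lowest confluent value, with confluent array 1 the highest and subconfluent array 3 the nearest to the confluent range. The means were 617 ± 181 and 271 ± 94.6 (SD, n = 4), a log2 difference of -1.06 ± 0.24 (SE), or 2.09-fold lower (limma adjusted p = 0.0295), and it was lower in 4 of 4 experiments. Without a filter on signal, where 12422 probe sets were tested, its adjusted p was 0.0549. Leaving out confluent array 1, 3 or 4 or subconfluent array 1, 2 or 4 ended the call, with adjusted p up to 0.0717 and log2 differences from -1.14 to -0.89. With the experiment number as a block it passed in each of 4 fits that left out 1 pair, which called 353 to 618 of the 6007 probe sets lower. Within chip lot A (1 array against 1) the log2 difference was -1.71 and within lot C (1 confluent array against 2) it was -0.77, and with lot as a block -1.17 (adjusted p = 0.0319, with 5.24% of all tested probe sets called lower). No overlap with lower subconfluent values was found in 8.54% of all tested probe sets, and lower values in 4 of 4 experiments in 22.1%.

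A second probe set of Man1a, 160580_at, had a mean of 190.0 over the 8 arrays, just under the minimum. Its signals were 358, 192, 211 and 176 on the confluent and 158, 139, 181 and 106 on the subconfluent arrays. They were lower in 4 of 4 experiments, as in 17.1% of all probe sets, but with subconfluent array 3 inside the confluent range. Fitted without the filter, its log2 difference was -0.51 ± 0.24 (SE, limma adjusted p = 0.328), smaller than that of the first. Both Man1a probe sets were highest on confluent array 1. The related mannosidase Man1a2 was at 4.4 to 28.4 on the confluent and 17.4 to 33.6 on the subconfluent arrays, values below the 50 added before the log, and no difference can be read at this signal.

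The class II mannosidase Man2a1 fell with a small spread. Its signals were 3012, 2714, 2685 and 3151 on confluent arrays 1 to 4 and 1620.2, 1606.5, 2184.5 and 1993 on subconfluent arrays 1 to 4. The groups did not overlap, as in 8.54% of all tested probe sets with lower subconfluent values, and subconfluent array 3 was again the highest of its group. The means were 2890.5 ± 228 and 1851 ± 285 (SD, n = 4), a log2 difference of -0.64 ± 0.15 (SE), or 1.56-fold lower (limma adjusted p = 0.0355). Man2a1 was lower in 4 of 4 experiments, as were 22.1% of all tested probe sets. Of all tested probe sets 8.39% had a lower log2 difference, against 2.85% for Man1a. The call ended without a filter (adjusted p = 0.0528), with each array centred on its median (0.0504), with chip lot as a block (log2 difference -0.58, adjusted p = 0.0814), and on leaving out each of confluent arrays 1, 3 and 4 and subconfluent arrays 1, 2 and 4 (up to 0.0906). Blocked by experiment number it passed (limma adjusted p = 0.0127), where 11.3% of all tested probe sets were called lower, but not without experiment 4 (0.0569). Within lot A the difference was -0.87 and within lot C -0.36.

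Mgat1 and Mgat2, which add the N-acetylglucosamines that start the branches, did not pass the test. Mgat1 probe set 96087_at gave 1147, 1113, 1096.5 and 1033 on the confluent and 1362, 1523, 1054 and 1134 on the subconfluent arrays, with the ranges overlapping. Its log2 difference was 0.19 ± 0.16 (SE, limma adjusted p = 0.498), with a 95% confidence interval of -0.15 to 0.53. The other Mgat1 probe set, 161492_i_at, whose name marks an incomplete set of unique probes, had a difference of -0.10 ± 0.16 (adjusted p = 0.753), between 797 and 1153 on the confluent and 803 and 1054.5 on the subconfluent arrays. The probe sets of Mgat1 thus had opposite signs, and neither interval excludes 0. Mgat2 gave 569, 398, 259.9 and 343 on the confluent and 617, 364, 204 and 382.5 on the subconfluent arrays, nearly equal means of 392.5 ± 131 and 392 ± 170 (SD, n = 4). Array 1 was the highest and array 3 the lowest in both groups. With the experiment number as a block the interval of the Mgat2 difference narrowed from -0.68 to 0.61 down to -0.37 to 0.29.

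Mgat3, the bisecting enzyme, was weak on every array. Its signals were 52.5, 139, 89.1 and 30.9 on the confluent and 22.6, 30.7, 18.6 and 12.1 on the subconfluent arrays. The highest subconfluent value lay just below the lowest confluent one, and the signal was lower in 4 of 4 experiments. Over all 12422 probe sets 5.87% showed such a separation and 17.1% were lower in 4 of 4 experiments. The log2 difference was -0.78 ± 0.24 (SE, limma adjusted p = 0.131 without the filter). With the experiment number as a block and no filter, a fit added after the data were seen, the adjusted p was 0.0498, where 4.03% of probe sets were called lower. With a pseudocount of 1 in place of 50 the difference was -1.70, so its size is set by the pseudocount at this signal.

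**Figure D2:**
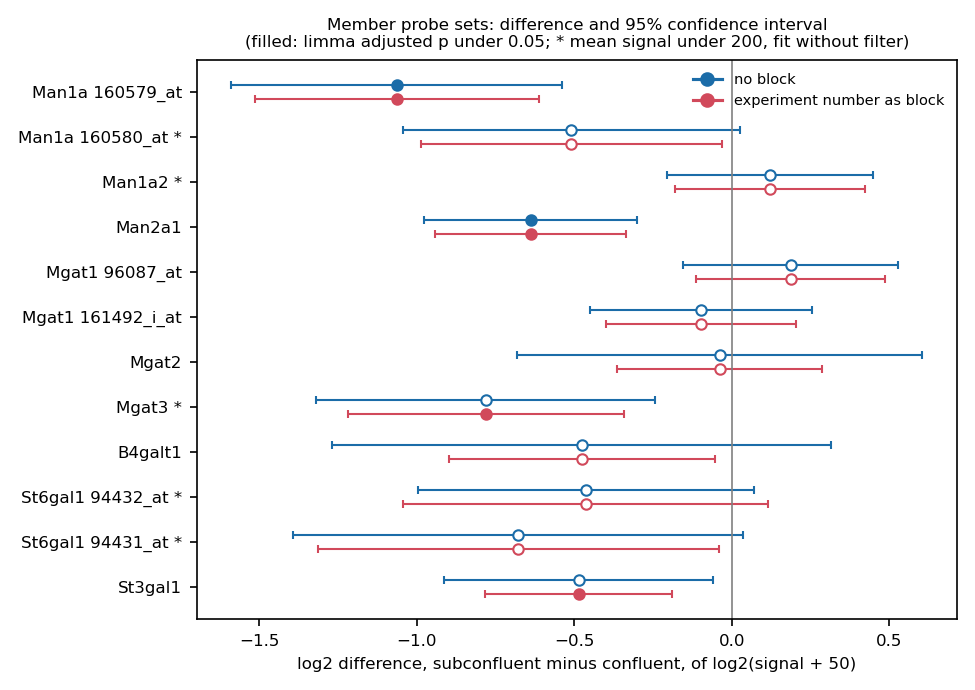
Log2 difference of log2(signal + 50), subconfluent minus confluent, for the 12 member probe sets (points) with 95% confidence intervals (lines), without a block in blue and with the experiment number as a block in red; filled points have a limma adjusted p under 0.05 and an asterisk marks a mean signal under 200, fitted without the filter. Man1a (160579_at) and Man2a1 are filled in both fits. St3gal1 is filled in the blocked fit only, where 11.3% of all tested probe sets were called lower. Mgat3 is filled only in the blocked fit without the filter, where 4.03% of all probe sets were called lower. St3gal1 did not pass in that fit (limma adjusted p = 0.0665).

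B4galt1, a galactosyltransferase of N-linked chains, varied widely between experiments and did not pass the test. Its signals were 1882, 3228, 3511 and 2581 on the confluent and 1075, 3666, 2753 and 1299.9 on the subconfluent arrays. Experiments 2 and 3 were high and 1 and 4 low in both groups, and the ranges overlapped widely. The log2 difference was -0.48 ± 0.36 (SE, limma adjusted p = 0.451), lower in 3 of 4 experiments and higher in experiment 2. The scale factors of the arrays were also higher in experiments 2 and 3 (7.35 to 13.3) than in 1 and 4 (3.05 to 5.58). With the log2 scale factor as a covariate the difference was -0.50 ± 0.23 (adjusted p = 0.205). Only the blocked fit without experiment 2 called it (-0.70, adjusted p = 0.0225), and the adjusted p was 0.103 with all 4 pairs.

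The sialyltransferases differed in how well they were measured. St3gal1 gave 820.0, 506, 616 and 649 on the confluent and 512, 319, 445 and 519 on the subconfluent arrays. It was lower in 4 of 4 experiments, as were 22.1% of all tested probe sets, by log2 values from 0.30 to 0.63. Confluent array 2 lay inside the subconfluent range. The means were 648 ± 130 and 449 ± 92.6 (SD, n = 4), a log2 difference of -0.49 ± 0.19 (SE, limma adjusted p = 0.141). With the experiment number as a block the same difference passed (adjusted p = 0.0301), when 11.3% of all tested probe sets were called lower and 9.94% higher, and it no longer passed without any 1 of the 4 pairs (up to 0.107) or, with the block, without the signal minimum (0.0665).

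St6gal1 was under the signal minimum in both of its probe sets. Probe set 94432_at gave 157, 143, 70.7 and 123 on the confluent and 48.4, 100, 93.4 and 59.3 on the subconfluent arrays, higher in the subconfluent array of experiment 3 only. Probe set 94431_at gave 87.7, 236.5, 46.1 and 37.1 against 38.4, 36.9, 31.3 and 30.6, so that its confluent mean rested on array 2. Their log2 differences were -0.46 ± 0.24 and -0.68 ± 0.33 (SE, limma adjusted p = 0.379 and 0.331 without the filter). Probe set 94431_at was lower in 4 of 4 experiments, as were 17.1% of all probe sets. With the experiment number as a block and no filter the limma adjusted p was 0.337 for 94432_at and 0.196 for 94431_at. Neither St6gal1 probe set thus passed, and the reason was not tested.

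Whether members that act on the same kind of step moved by different amounts was asked from the log2 ratio of their signals on each array. Of 4 planned pairs, that of Man2a1 and Man2a2 could not be formed. The ratio of Man1a to Man1a2 went from 3.25 ± 0.57 in confluent to 2.06 ± 0.52 in subconfluent cells (SD of the log2 ratio, n = 4), a change of -1.19 (two-sided exact permutation test, p = 0.0286, the smallest that 70 assignments can give, and 0.0857 adjusted over the 3 pairs run). Because Man1a2 was near the floor, this ratio follows the Man1a signal. Flipping the groups within experiments gave an exact p of 0.125, the smallest that 4 pairs allow. The change was -1.77 with a pseudocount of 1 (exact p = 0.0857), and within lot A it was -2.01. The ratio of Mgat1 to Mgat2 changed by 0.23 (exact permutation p = 0.457, adjusted 0.686) and that of St6gal1 to St3gal1 by 0.02 (exact permutation p = 0.971, adjusted 0.971). In these the SDs within groups were 0.38 to 0.56, so the data do not show that the members of a pair acted alike.

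No gene outside the members passed among the other genes of glycosylation and the Golgi. Of 251 such genes in 8 lists, 136 were on the array with a symbol of their own and 86 passed the signal minimum, each represented by its highest probe set. By limma 0 of 86 rose and 0 fell, where 2.83% and 4.39% of all tested genes did, and 14 of 86 had an unadjusted p under 0.05, beside 27.2% of all tested genes. A negative difference was found in 54 of 86, beside 49.5% of all tested genes. With the experiment number as a block 3 rose and 7 fell, against 10.1% and 12.1% of all tested genes. Endoplasmic reticulum genes that assemble and transfer the precursor chain had a median log2 difference of -0.17 over 16 genes (10 negative), and those that trim it and judge folding of -0.21 over 11 genes (8 negative). Of the remaining Golgi enzymes of N-linked and terminal sugars 8 passed the minimum, with a median of -0.01 and a range from -0.79 to 0.62. The medians were -0.02 for 8 O-glycan enzymes, -0.02 for 9 proteoglycan chain enzymes and -0.04 for 19 genes of sugar nucleotide supply. For 13 genes of the Golgi matrix and its organisation the median was -0.16 (10 negative). The 2 other alpha-mannosidases on the array, the lysosomal Man2b1 and the cytosolic Man2c1, were at -0.43 ± 0.18 and -0.14 ± 0.25 (SE, limma adjusted p = 0.170 and 0.769).

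**Figure D3:**
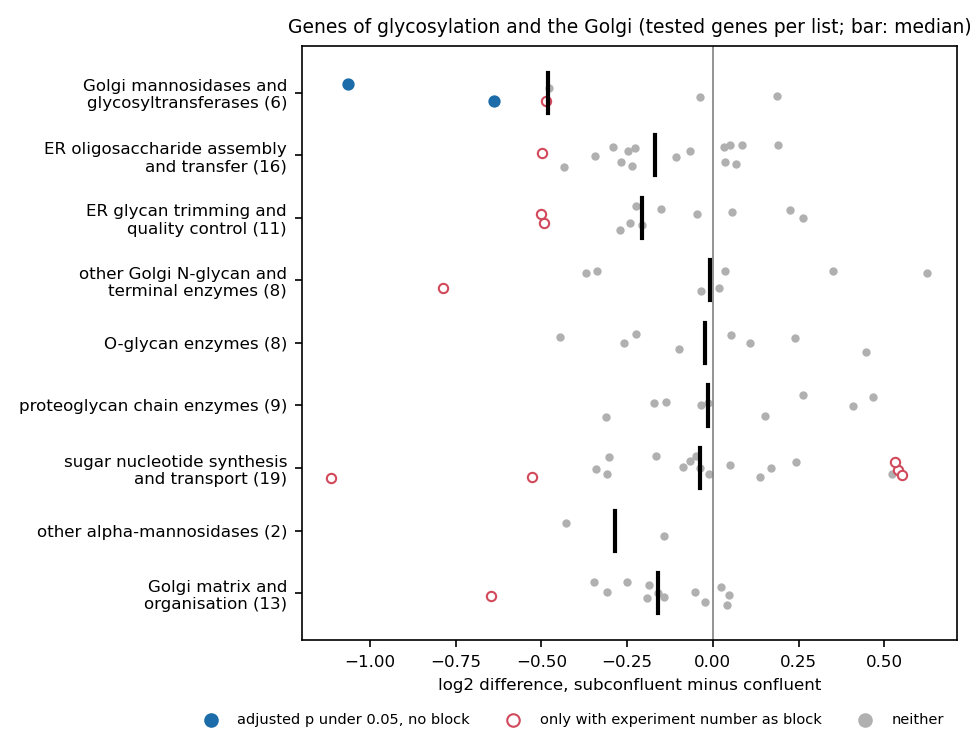
Log2 difference (subconfluent minus confluent) of each tested gene, by list, with the number of tested genes in brackets and the median as a black bar; blue points passed without a block, open red points only with the experiment number as a block and grey points in neither. The members have a median of -0.48 over 6 genes and hold the only blue points, and the other lists have medians from -0.29 to -0.01.

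Some markers of fibroblasts and pericytes moved with the groups as well. The 15 tested markers of fibroblasts and pericytes averaged -0.73 to -0.53 on the subconfluent and -0.13 to 0.28 on the confluent arrays (log2, the confluent mean being 0), and 5 of the 15 fell and 0 rose by limma (7 and 1 with the experiment number as a block), where 4.39% of all tested genes fell (12.1% with the block). Of the 15, 11 had a negative difference. Their summed signal over 21 genes was 68301 to 98843 in confluent and 40556 to 55558 in subconfluent cells. This sum is made up mostly of Col1a1 (means of 20958 confluent and 16188 subconfluent), Col1a2 (19156 and 9509) and Dcn (14708 and 3476), so it does not describe 21 markers alike. The 6 tested member genes stood at -0.48 to -0.36 and at -0.06 to 0.16 on the same arrays. The groups overlapped in summed endothelial markers (2321 to 3010 confluent, 2519 to 2935 subconfluent) and in summed smooth muscle markers over 8 genes (3606 to 5570.0 and 2323 to 10723). Of 3 tested endothelial markers 0 passed, and with the block 1 rose and 1 fell. Of 4 tested smooth muscle markers 1 fell and 0 rose, and with the block 2 rose and 1 fell, so these sums hold opposite changes. Summed macrophage markers over 11 genes were 2951 to 4313 and 2165 to 2787, a sum made up mostly of Cd14 (means of 2541 and 1521, limma adjusted p = 0.0563, and 0.0228 with the block), with Ptprc at 4.6 to 18.0. Mitotic genes (19 genes) summed to 11833 to 30494 in confluent and 34807 to 38725 in subconfluent cells. Of 18 tested, 2 rose by limma and 12 with the block, where 2.83% and 10.1% of all tested genes rose. The part of these shifts in the fall of Man1a and Man2a1 was not tested.

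Among all tested probe sets with 1 symbol, those whose log2 signals followed Man1a (160579_at) most closely over the 8 arrays were Ssbp4 (Pearson r = 0.987), Mrpl24 (0.985), Ptov1 (0.985), Clcn5 (0.981) and Pltp (0.980). They share the arrays and their pairing with Man1a, and such a ranking always names some genes. Of the 5, Ssbp4 (log2 difference -0.73, limma adjusted p = 0.0317) and Ptov1 (-1.38, 0.0407) passed the test, where 4.06% of all tested probe sets were called lower. Man1a itself differed between the groups, so probe sets picked for following it tend to differ too. These calls are therefore no separate evidence.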

How the data were processed

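Signals were deposited for 8 Affymetrix arrays, 1 per sample. Per the labels, the authors made them with the Affymetrix statistical algorithm, 1 linear signal per probe set, scaled to a target of 500. Their software version is not given in the sources used here. The table held 12488 probe sets, of which 66 were controls, left out here. Detection calls were not analysed. The trimmed mean of every array was 499.9, so no further normalization was applied.

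By the platform annotation 10855 probe sets had 1 symbol, 396 had several and 1237 had none. Of the 10855, 10839 had a gene identifier that matched the RefSeq gene table. A mean over 8 arrays of 200 or more was required, which left 6007. Groups were compared with limma 3.58.1 (R 4.3.3) on log2(signal + 50), with a variance trend, 6 residual degrees of freedom, no block, two-sided, Benjamini-Hochberg adjusted over all probe sets tested. The fit was tested on simulated data. Tables and plots used Python 3.11.15, pandas 2.3.3, numpy 2.4.6 and matplotlib 3.10.9.

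Arrays with the same experiment number had correlated deviations from their group means (0.486, 0.357, 0.516 and 0.348), and the highest value with another number was 0.0681. A fit with the number as a block was therefore run as an alternative. The 4 chip lots in the labels were called A to D. Lot A held confluent and subconfluent array 1, lot C confluent array 3 and subconfluent arrays 3 and 4, and lots B and D arrays of 1 group each.

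The members and lists were chosen with earlier results of these data known. All members were named with every probe set. Of each other list, up to 3 genes that passed were to be named, and none did. For the member with the smallest p, the 5 probe sets most like it were named, and marker genes only as lists and defining markers.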

Additional observations from a re-analysis of the deposited data

How the results depend on the processing

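Without the signal minimum 72 probe sets were higher and 136 lower, beside 165 and 244 as reported, 0 members fell, and Man1a (-1.06) and Man2a1 (-0.64) lost their calls with unchanged differences; this setting tests more probe sets and also refits the variance trend. With the experiment number as a replicate block 597 were higher and 679 lower, St3gal1 passed at -0.49 (limma adjusted p = 0.0301), and 3 other glycosylation and Golgi genes rose and 7 fell. The block changed no other call of a tested member. Mgat3 was fitted with block and no minimum as an alternative chosen after seeing the data. Array weights gave 311 higher probe sets and 1 lower gene of the other lists, the scale factor covariate 1 such gene, and chip lot as a block 368 higher probe sets, 2 such genes and 1 lower member. Under a minimum of 500, which leaves Man1a untested, 1 member fell, and after median centring, where Man2a1 lost its call, 1 fell. Man2a1 was -0.58 with lot as a block and -0.59 after median centring. Mgat2 turned to 0.055 with array weights, 0.10 with lot as a block, 0.0064 after median centring and 0.0069 after quantile normalization. The causes of these shifts were not tested.

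Within lot A the differences were -1.71 and -0.98 for the Man1a probe sets, -0.87 for Man2a1 and -1.07 for St6gal1 (94432_at), and the median of the members was -0.71. Within lot C they were -0.36 for Man2a1, -0.0043 and -0.31 for Mgat1 (96087_at and 161492_i_at) and 0.053 for St6gal1 (94432_at). With a pseudocount of 1 Man1a2 was 0.56, Mgat3 -1.70, the ratio of Man1a to Man1a2 -1.77 (-2.01 in lot A) and that of St6gal1 to St3gal1 -0.18. The median of the precursor assembly genes was -0.067 with a minimum of 500, -0.079 with lot as a block and -0.049 in lot A. That of the remaining Golgi enzymes was -0.030 without a minimum, -0.38 with a minimum of 500, 0.029 after quantile normalization, -0.14 with lot as a block and -0.25 in lot C. Proteoglycan enzymes were at 0.17 in lot A and -0.11 in lot C.

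With 1 array left out, 18 to 342 probe sets were higher and 80 to 345 lower, with 0 to 2 members and 0 to 2 other listed genes lower. With a pair left out of the blocked fit these were 223 to 652 (258 without experiment 1), 353 to 618 (367 without experiment 3, 413 without experiment 4), 1 to 3 and 2 to 7, with 0 to 2 listed genes higher. Man1a ranged from -1.25 to -0.89 with 1 array left out (pairs -1.26 to -0.85), Man2a1 from -0.72 to -0.58 (pairs -0.75 to -0.56, with -0.63 and no call without experiment 4), Mgat2 from -0.26 to 0.20 (0.044 without pair 3) and B4galt1 from -0.78 to -0.20 (pairs -0.70 to -0.31), and the medians of precursor assembly from -0.22 to -0.10, remaining Golgi enzymes from -0.087 to 0.014 and proteoglycan enzymes from -0.064 to 0.077. The ratio of Man1a to Man1a2 ranged from -1.41 to -0.90 and that of St6gal1 to St3gal1 from -0.21 to 0.20. Every difference of Man1a, Man2a1, St3gal1, B4galt1 and Mgat3 was negative under every alternative run. Signal near background limits Man1a2, Mgat3 and St6gal1.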

Other observations

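Among the other glycosylation and Golgi genes, 10 passed only with the experiment number as a block, and those named here were chosen after their values were seen. The 3 that were higher, of 86, compare with 10.1% of all tested genes. Gne, whose enzyme starts sialic acid synthesis, had signals of 319.7, 501, 532 and 477 on the confluent and 541, 768, 780.5 and 647 on the subconfluent arrays. The groups did not overlap, as in 8.5% of all tested genes with higher subconfluent values, and the log2 difference was 0.54 (limma adjusted p = 0.100, and 0.0194 with the block). Nans, the next synthase of that route, gave 648, 928, 820.3 and 1005 against 1180, 1606, 1147 and 1132, also without overlap (0.55, limma adjusted p = 0.0869 and 0.0299). Pmm1, a phosphomannomutase, was at 0.53 (0.0902 and 0.0262). Cmas, which activates sialic acid, was at -0.31 (0.346, and 0.126 with the block), the sialic acid carrier Slc35a1 at -0.09 (0.803 and 0.768) and Pmm2 at 0.52 (0.148 and 0.0687).

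Of the 7 that were lower with the block, Entpd5, a nucleotide phosphatase of the endoplasmic reticulum, had the largest difference. Its signals were 348, 329, 355 and 503 on the confluent and 232, 39.3, 239 and 162 on the subconfluent arrays, without overlap, as in 9.25% of all tested genes with lower subconfluent values (log2 difference -1.11, limma adjusted p = 0.0723, and 0.0229 with the block), with subconfluent array 2 far the lowest. The others were B4galnt1, a ganglioside synthase (-0.79, 0.0912 and 0.0074), the Golgi protein gene Glg1 (-0.65, 0.102 and 0.0121), the sulfate donor carrier Slc35b2 (-0.53, 0.116 and 0.0298), Dpm1 of dolichol-mannose synthesis (-0.50, 0.222 and 0.0404), the cargo lectin Lman1 (-0.50, 0.173 and 0.0245) and Edem2 of mannose trimming (-0.49, 0.0902 and 0.0280). With the block 12.1% of all tested genes were called lower and 10.1% higher.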
